A study of Triticum aestivum with 9 samples.

Results

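The short arm of wheat chromosome 1B (1BS) is described here through every gene of the deposited expression table whose identifier begins with Traes_1BS_, which gave 1465 genes of 130542 in the table. The short arms of chromosomes 1A (1AS, 1539 genes) and 1D (1DS, 1264 genes), its counterparts in the other subgenomes, and the long arm 1BL (2713 genes) were set beside it. The study asked how wheat seedlings respond when protein folding in the endoplasmic reticulum (ER) is disturbed. Leaves of seedlings of the cultivar Yunong211 were sampled on day 2 of treatment in 3 groups of 3 libraries, all of the same cultivar and grown in nutrient solution. The control (C) had no chemical added, the DTT group (D) received 7.5 mM dithiothreitol, a reducing agent that breaks disulfide bonds and so causes ER stress, and the DTT + TUDCA group (T) received 7.5 mM DTT with 25 μg/mL tauroursodeoxycholic acid, a chemical chaperone that eases it. The labels number 3 replicates in each group and the methods call them independent biological replicates, so the spread given is that between seedling samples of 1 cultivar.

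Bread wheat is a hexaploid with A, B and D subgenomes, and most of its genes are present as 3 homoeologous copies, so that genes of 1BS usually have close relatives on 1AS and 1DS. The arm is known for a nucleolus organizer, which holds repeated ribosomal RNA genes, and for loci of the seed storage proteins gliadin and low-molecular-weight glutenin, which are made in the grain and not in the leaf. In many bread wheats the arm has been replaced by the short arm of rye chromosome 1R. The sources used here do not say which arm Yunong211 carries, and no rye sequence was searched. Arm-specific identifiers of this kind come from flow-sorted chromosome arms of the reference line Chinese Spring. The table gives no position within the arm for these genes, and the file pairs none of them with a gene name.

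Values are FPKM, fragments on a gene scaled to its transcript length and to the mapped fragments of the library, and a gene was called expressed above an FPKM of 1, the limit of the study. The libraries held 16334906 to 26760247 fragments on genes. The 24 genes that the study lists for the oxygen-evolving complex of photosystem II, a component of green leaf, had library medians of 8.31 to 15.3 FPKM, and 18 of them were above 1 in every library. DTT + TUDCA replicate 2 stood apart. In it 2387 of 55137 expressed genes of the table differed more than 4-fold from the average of its group mates, against 136 to 345 in the other libraries. On 1BS this concerned 5 of 182 expressed genes in that library and 0 or 1 in each of the others.

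Few genes of 1BS were expressed. Only 182 of the 1465 genes (12.4%) had a mean above 1 FPKM, against 619 genes (40.2%) of 1AS, 534 (42.2%) of 1DS and 1294 (47.7%) of 1BL. Across the other 39 chromosome arms of the table this share ran from 38.0% in 2BL to 50.7% in 1DL, with a median of 44.1%. Chromosome 3B, which the table does not split into arms, had 27.5% of 9539 genes expressed. No fragment at all was counted in any of the 9 libraries for 779 genes of 1BS (53.2%). The other arms had 20.6% to 34.6% of their genes at 0 throughout, and chromosome 3B had 46.6%. Without DTT + TUDCA replicate 2, 185 genes of 1BS were expressed and 783 were at 0.

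The same held library by library. Expressed genes of 1BS numbered 181, 163 and 183 in the control libraries, 195, 189 and 181 in the DTT libraries and 199, 163 and 185 in the DTT + TUDCA libraries, or 11.1% to 13.6% of the arm. On 1AS the share was 35.7% to 41.7%, on 1DS 38.8% to 42.6% and on 1BL 45.1% to 48.0%, so that no library of another arm came near those of 1BS. In each of the 9 libraries 1BS was the lowest of the 40 arms, and the next lowest arm had 35.7% to 38.6%. The difference of 1BS minus 1AS averaged -27.4 percentage points ± 1.08 (SD, n = 9 libraries), that of 1BS minus 1DS -28.6 ± 0.573 and that of 1BS minus 1BL -34.4 ± 0.518. Each was negative in 9 of 9 libraries, and a two-sided exact sign-flip permutation test over libraries gave p = 0.00391 for each, the smallest value that 9 libraries allow (adjusted over the 3 arms, 0.00391). The same genes are counted in every library, so the test covers only the spread between libraries of 1 cultivar. It does not test how unusual the arm is among arms.

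**Figure D1:**
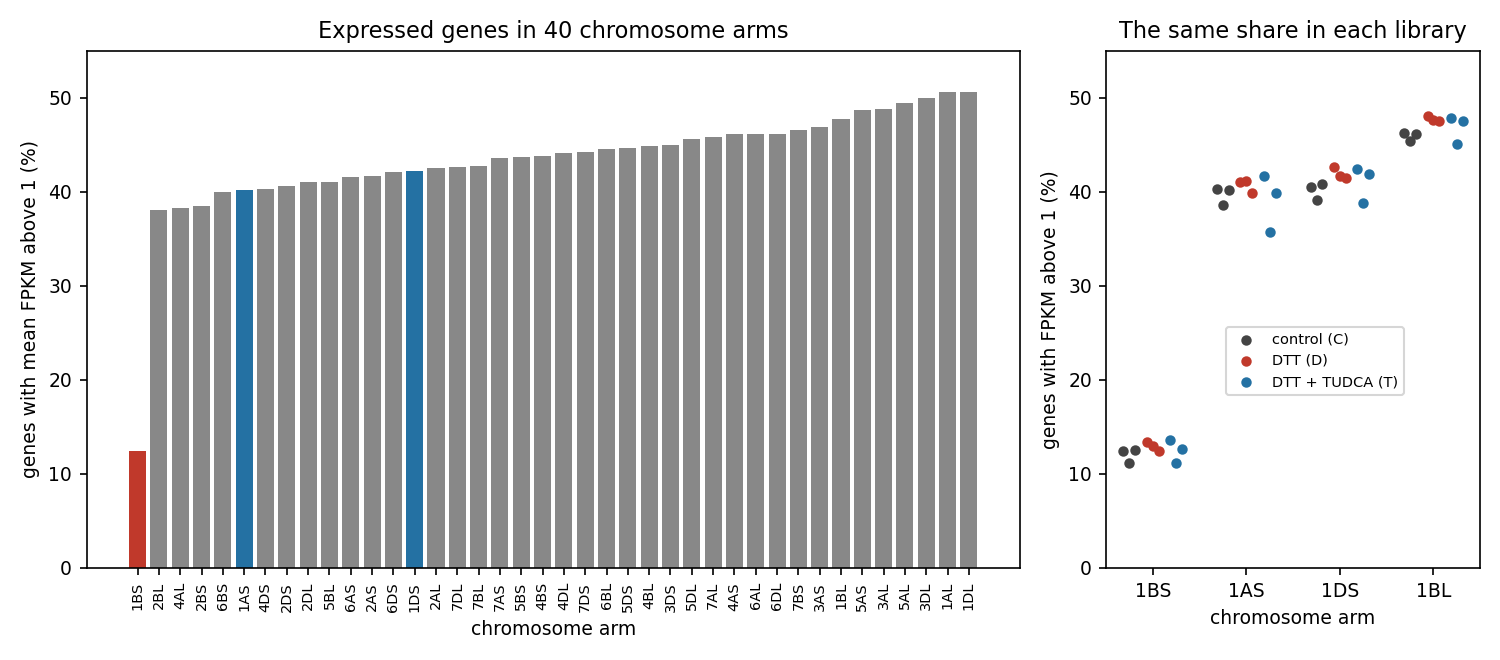
Left, bars give the percentage of genes with a mean FPKM above 1 in each of 40 chromosome arms, with 1BS in red and 1AS and 1DS in blue. Right, points give the percentage of genes above 1 FPKM in each library of 1BS, 1AS, 1DS and 1BL, coloured by group. The 9 libraries of 1BS sit between 11.1% and 13.6%, below all libraries of the other 3 arms.

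The gap to the other short arms widened with level. In the same library the share of 1BS was 57.8% to 60.3% of that of 1AS for any value above 0, 28.8% to 32.6% above 1 FPKM and 9.93% to 12.7% above 10 FPKM, and these ranges do not overlap. Taking any value above 0, the mean share over the 9 libraries was 36.3% ± 1.38 (SD) on 1BS, 61.1% ± 1.65 on 1AS and 62.5% ± 1.02 on 1DS. Above 10 FPKM it was 1.44% ± 0.138 on 1BS, 12.4% ± 0.867 on 1AS and 13.2% ± 1.04 on 1DS. In all, 98 genes of 1BS had a mean of 1 to 3 FPKM, 63 had 3 to 10, 16 had 10 to 30 and 5 had 30 to 100. None exceeded 100, a level passed by 10 genes of 1AS and 8 of 1DS. The median level of the expressed genes was 2.71 FPKM on 1BS and 4.07 to 5.86 on the other 39 arms. The highest mean on 1BS was 91.8 FPKM, against 327 on 1AS and 420 on 1DS.

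**Figure D2:**
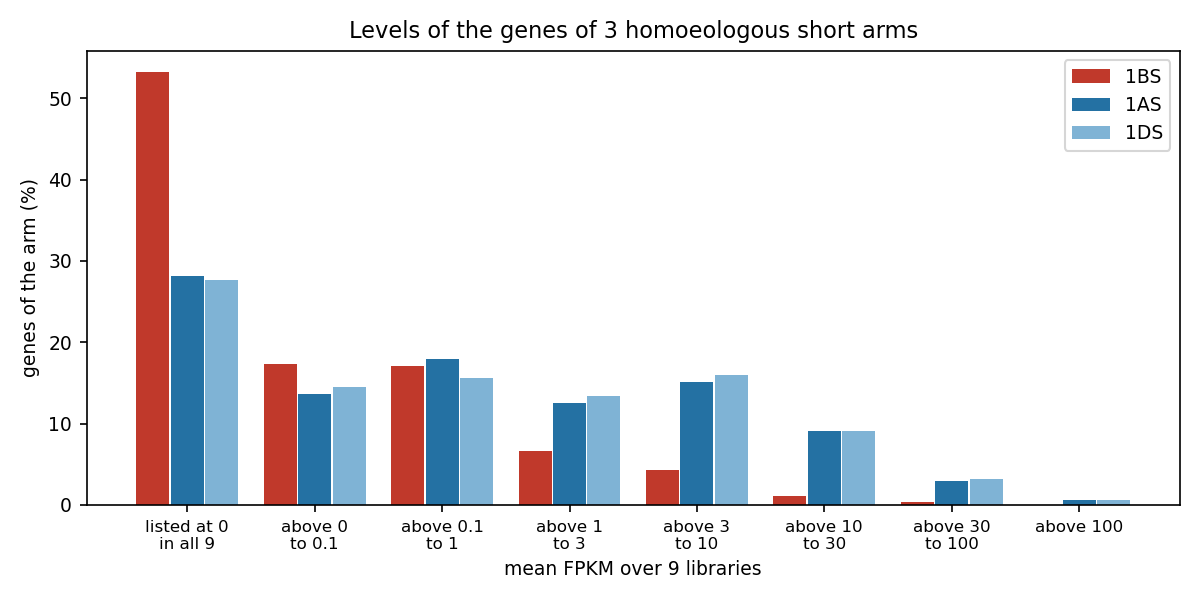
Bars give the percentage of the genes of 1BS (red), 1AS (dark blue) and 1DS (light blue) in classes of mean FPKM over the 9 libraries. On 1BS 53.2% of genes were listed at 0 in all 9 libraries and 12.4% lay above 1, and the classes above 1 are all smaller than on 1AS and 1DS.

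Many of the remaining members were barely above zero. Of the 686 genes of 1BS with any fragment, 406 had a value above 0 in all 9 libraries and 119 were above 1 in all 9. A further 190 of the 686 never had more than 3 fragments in a library. Fragment numbers were worked back from the steps between FPKM values, which gave whole numbers for 99.9945% of the genes above 0. Only 26.5% of the detected genes of 1BS were expressed, while on the other arms this was 52.4% to 65.7%. Lengths can be recovered only for genes with fragments. The median was 1471.5 bp for detected 1BS genes, 1080 bp on 1AS and 1398.5 bp on 1DS.

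1BS took 0.156% of all fragments on genes, 1AS 0.940%, 1DS 0.991% and 1BL 2.28%. Of the 280180 fragments of the arm, the 5 genes with the most held 16.3%, the top 10 held 25% and the top 50 held 61.4%. Few members thus carried most of the signal of 1BS, and the like shares of the other arms were not computed. The expressed members were measured about as evenly between replicates as those of the other short arms, with a median coefficient of variation of 15.8% in C, 16.5% in D and 23.5% in T on 1BS, 15%, 16.1% and 27.1% on 1AS, and 14.8%, 15.2% and 22.1% on 1DS.

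Transcripts assembled by the authors outside the annotation were also few on 1BS. On the unplaced scaffolds of each arm there were 39 for 1BS, 85 for 1AS, 149 for 1DS and 128 for 1BL. Per 100 annotated genes this was 2.66 for 1BS, the lowest of 40 arms, and at least 4.25 for the others. Of the 39, 25 had a mean above 1 FPKM (64.1%), beside 49 of 85 on 1AS (57.6%) and 86 of 149 on 1DS (57.7%). The 5 with the largest means reached 9.85 FPKM (Novel11968), 8.01 (Novel11994), 6.35 (Novel11965), 6.24 (Novel12000) and 5.55 (Novel12002). Novel11968 ran from 2.75 FPKM in control replicate 3 to 19.6 in DTT replicate 3 with no order by group. Novel12002 had 3.59, 3.55 and 3.56 FPKM in C, 7.11, 7.94 and 5.77 in D and 5.25, 7.26 and 5.96 in T, and its C libraries lay below all others.

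Such unannotated transcripts also lie on assembled chromosomes. On chromosome 1B the first 120 Mb held 80 of them (6.67 per 10 Mb) and the rest held 404 (23.1 per 10 Mb). On 1A the first 120 Mb held 321 (26.8 per 10 Mb) and the rest 303 (23.7 per 10 Mb). On 1D the first 120 Mb held 291 (24.3 per 10 Mb). The remainder of 1D held 83 (53.5 per 10 Mb), so on 1D too the first 120 Mb was the sparser. That remainder was short, as the last of these transcripts ended at position 135522136 on 1D and at 294904457 on 1B. In steps of 40 Mb from the start of 1B the counts were 38, 29 and 13, then 57, 94, 75 and 109. The last and shorter step held 69. The genome build and the boundary between the arms are not given in the sources used here, so these positions cannot be assigned to 1BS itself.

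Among the 182 expressed members, the 15 with the largest mean FPKM ran from 91.8 down to 14.7. At the top stood Traes_1BS_8C1DB9CF91, a transcript of 348 bp with no function given in the sources. It had 13.4, 13.9 and 19.1 FPKM in C, 185, 168 and 177 in D and 117, 48.9 and 83.2 in T. The 3 groups did not overlap, and D was the highest. It rose by 3.28 ± 0.26 (log2) in D vs. C (adjusted P = 0.000118, limma over all genes tested) and by 2.16 ± 0.26 in T vs. C (adjusted P = 0.00174), both with 3 libraries a group.

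The next members were steady. Traes_1BS_217BCBF47 had 89.3, 63.2 and 96.9 FPKM in C, 98.8, 92.7 and 89.5 in D and 96.1, 73.8 and 76.9 in T, and the groups overlapped. In D vs. C the log2 fold change was -0.05 ± 0.16. Traes_1BS_30F533C7D had 51.8, 47.5 and 41.6 FPKM in C, 52.9, 67.3 and 81.4 in D and 63.0, 77.3 and 58.0 in T. Its C libraries were the lowest as deposited, but its log2 fold change after scaling was 0.25 ± 0.21 in D vs. C (limma, adjusted P = 0.546).

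Traes_1BS_EA5CD48FC, of 204 bp, was lower in D. It had 75.8, 75.5 and 61.4 FPKM in C, 43.5, 57.5 and 41.9 in D and 50.4, 73.8 and 68.1 in T, and C and D did not overlap. Its log2 fold change in D vs. C was -0.83 ± 0.21 (limma, adjusted P = 0.033), past the adjusted limit of 0.05 but under the fold limit of the study. Traes_1BS_FA0EFB1B8 had 12.2, 13.4 and 13.8 FPKM in C, 22.7, 26.1 and 33.4 in D and 31.9, 34.2 and 27.0 in T, and all treated libraries were above the controls. It rose by 1.04 ± 0.18 (log2) in T vs. C (limma, adjusted P = 0.00943), and by 0.94 without DTT + TUDCA replicate 2 or 0.97 without control replicate 1, under the fold limit. In D vs. C its log2 fold change was 0.79 ± 0.18.

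Of the other highly expressed members with no function given, Traes_1BS_DD36A7A9B (mean 31.6 FPKM), Traes_1BS_12C552EFA (29.6), Traes_1BS_77D2B4C0D (26.5), Traes_1BS_D3007A1BA (23.3), Traes_1BS_CEB5DA163 (19.1) and Traes_1BS_76F5D4D2D (17.0) passed the thresholds in none of the comparisons. Traes_1BS_7F3F0F4EE, of 393 bp, had 25.8, 24.1 and 26.1 FPKM in C, 11.3, 11.6 and 9.49 in D and 14.1, 2.51 and 13.7 in T. All its treated libraries were below the controls, and DTT + TUDCA replicate 2 was the lowest. Its log2 fold change in T vs. C was -1.86 ± 0.51 (unadjusted P under the limit, limma adjusted P = 0.0554) and -1.07 without DTT + TUDCA replicate 2, still a DEG. In D vs. C it was -1.47 ± 0.51 (adjusted P = 0.115).

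**Figure D3:**
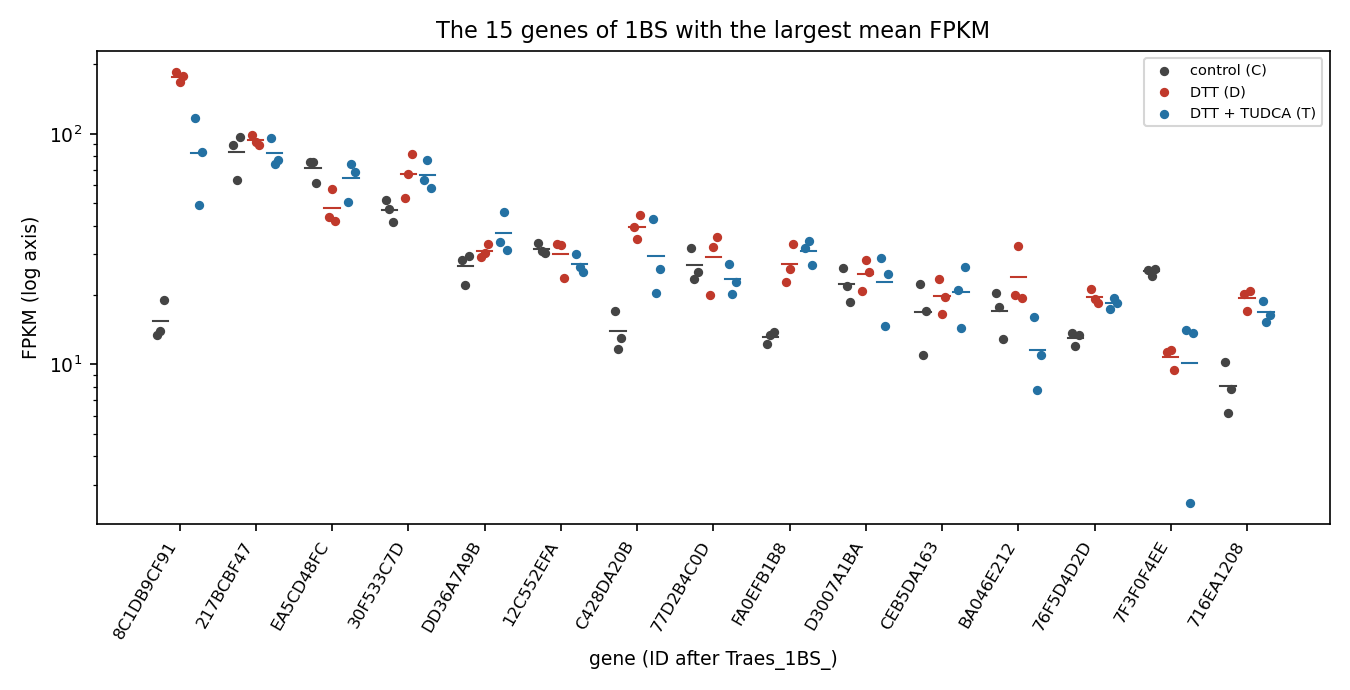
Points give the FPKM of each library, on a log axis, for the 15 genes of 1BS with the largest mean, in the groups C, D and T from left to right, with a short line at each group mean. Traes_1BS_8C1DB9CF91 lies from 13.4 to 19.1 in C and from 168 to 185 in D.

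Responses were tested in 432 of the 1465 members, those with a mean of at least 0.1 FPKM, in 1 model fitted to the 78030 genes of the table that passed this filter. Differentially expressed genes (DEGs) were those with P under 0.01, unadjusted, that also changed by 1 or more on the log2 scale, the limits the study used. In D vs. C 26 of 432 members were DEGs (6.02%), while 8.02% of all genes tested were. Of these 12 were higher in D (2.78% of members, 4.27% of all genes) and 14 were lower (3.24% of members, 3.75% of all genes). The share on 1AS was 5.92% (53 of 895) and on 1DS 8.34% (61 of 731). An adjusted P under 0.05 was met by 29 members (6.71%, against 9.04% of all genes), and 20 of the 26 DEGs were among them. In FPKM as deposited, before scaling, the libraries of D and C did not overlap in 128 members (29.6%), against 38.8% of all genes. The median log2 fold change was -0.05 over the 432 members and -0.01 over all genes.

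The split by direction depended on scaling. With FPKM as deposited, which moved the median log2 fold change of all genes to 0.22, 19 of 25 DEGs on 1BS were higher in D. In scaled values the rises and falls were near balance. Leaving out DTT replicate 3 or control replicate 3 lowered the count of DEGs to 12 or 16, and a mean FPKM minimum of 1 lowered it to 15. Of the 182 expressed members, 15 were DEGs in D vs. C, 6 higher and 9 lower, and 160 had a log2 fold change within 1 of no change. In a fit of only the genes with a mean of at least 1 FPKM, 15 of 182 members were called (8.24%), against 8.29% of 55137 genes, so the lower share among the 432 members was not seen there. In T vs. C that fit called 16 members (8.79%), against 8.18% of all genes in it. In T vs. D it called 5 members (2.75%), against 0.827% of all genes in it.

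In T vs. C 23 of 432 members were DEGs (5.32%, against 7.87% of all genes), 9 higher (2.08%, against 4.36%) and 14 lower (3.24%, against 3.5%). An adjusted P under 0.05 was met by 19 members (4.4%, against 7.76%). In unscaled FPKM the libraries did not overlap in 112 (25.9%, against 33.1%). With FPKM as deposited 16 of 24 were higher, and the median log2 fold change was 0.01 over the members and 0.16 over all genes. Without DTT + TUDCA replicate 2 the count was 16, and without control replicate 3 it was 13. The median log2 fold change was -0.16 over the members and -0.02 over all genes, but without DTT + TUDCA replicate 2 it was -0.03 over the members and 0.01 over all genes. Both comparisons use the same control libraries.

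In T vs. D 7 members were DEGs (1.62%, against 1.1% of all genes), 4 of them higher in T. None had an adjusted P under 0.05, and the smallest on 1BS was 0.493. Over all genes 1 had. At an unadjusted P under 0.05 there were 28 members and 5793 genes in all. Without DTT + TUDCA replicate 2 the count was 4. Non-overlap of T and D in unscaled FPKM was found in 56 members (13%), against 11% of all genes. On 1AS it was 11.5% and on 1DS 11.9%. With so few members past the limit, the differences between T and D on this arm were within what this test could not separate from the spread between libraries.

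**Figure D4:**
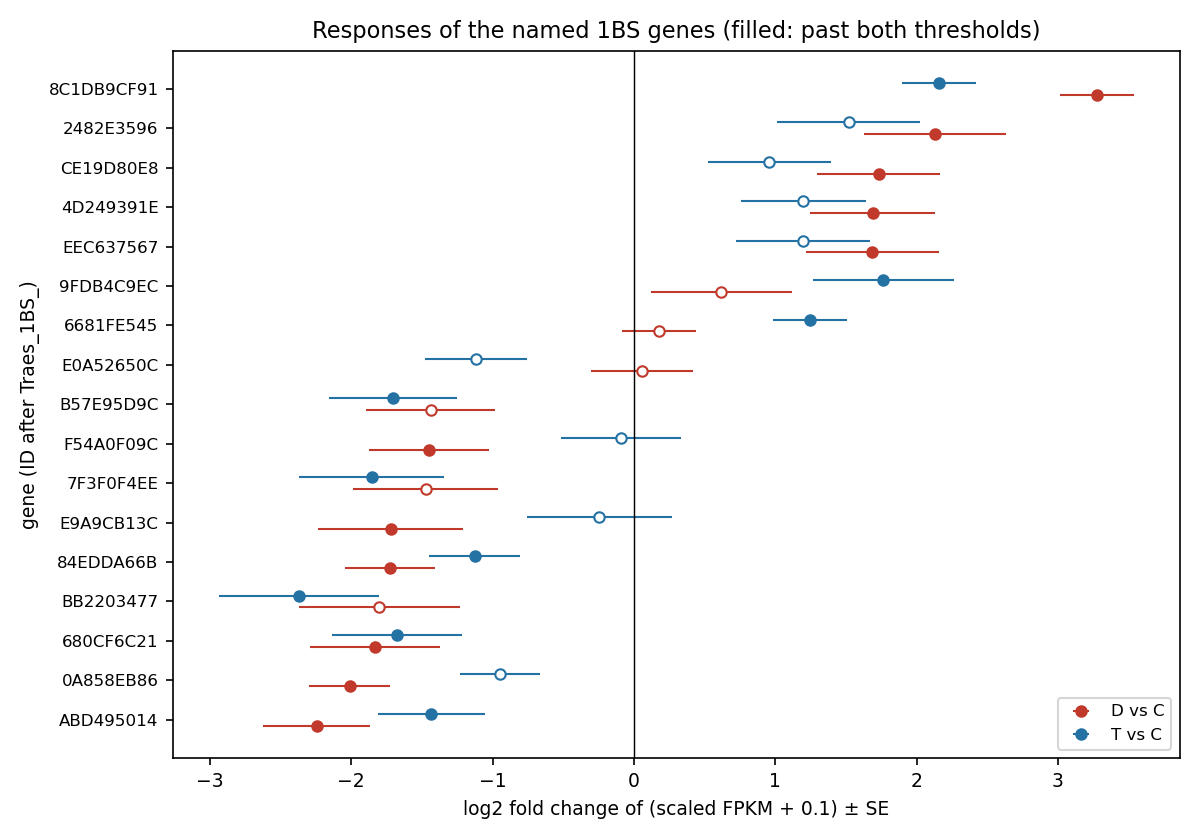
Points give the log2 fold change of scaled FPKM with 0.1 added, with bars of 1 SE (3 libraries a group), in D vs. C (red) and T vs. C (blue) for the 1BS genes with the largest changes among DEGs. Filled points passed both thresholds. The values run from 3.28 for Traes_1BS_8C1DB9CF91 to -2.37 for Traes_1BS_BB2203477.

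The functions of 16 members could be taken from the gene ontology (GO) and transcription factor lists of the study, which gave 34 genes on 1AS and 43 on 1DS. The study picked them as responding in these libraries, so their directions are no independent evidence. Enzymes of oxidation and reduction moved both ways. Traes_1BS_C428DA20B, listed as a dioxygenase that uses 2-oxoglutarate, had 17.0, 11.7 and 13.0 FPKM in C, 39.4, 34.9 and 44.5 in D and 42.8, 20.4 and 25.9 in T. All treated libraries were above the controls. It rose by 1.27 ± 0.25 (log2) in D vs. C (limma, adjusted P = 0.0108), and its value in T vs. C was 0.85 ± 0.25 (adjusted P = 0.0649).

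Traes_1BS_716EA1208, listed as an acyl-CoA dehydrogenase, an enzyme that oxidizes acyl groups bound to coenzyme A, had 10.2, 6.15 and 7.81 FPKM in C, 20.3, 17.0 and 20.8 in D and 18.7, 15.3 and 16.4 in T. Again all treated libraries were above the controls, with a rise of 1.03 ± 0.18 in D vs. C (limma, adjusted P = 0.00656). This lies close to the fold limit, and it was 0.89 without control replicate 2, 0.99 without control replicate 3 and 0.96 without DTT replicate 3. Traes_1BS_36169E4A1, listed as an NAD-binding oxidoreductase, had 1.28, 1.21 and 1.88 FPKM in C, 5.0, 3.37 and 3.44 in D and 4.98, 4.34 and 4.80 in T. It rose by 1.14 ± 0.22 in D vs. C (limma, adjusted P = 0.0103) and by 1.47 ± 0.22 in T vs. C (adjusted P = 0.00464). Without DTT replicate 1 the first value was 0.97.

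Traes_1BS_ABD495014 moved the other way. Its listed terms include phosphogluconate dehydrogenase, an NADP-reducing enzyme of the pentose phosphate pathway, among many others of NADP, lysine and tetrapyrrole metabolism. It had 3.65, 7.12 and 3.60 FPKM in C, 1.76, 0.932 and 0.698 in D and 1.56, 1.75 and 2.33 in T, with all treated libraries below the controls. Its log2 fold change was -2.24 ± 0.38 in D vs. C (limma, adjusted P = 0.00546), the largest fall on the arm in that comparison, and -1.43 ± 0.38 in T vs. C (adjusted P = 0.0481). The call in T vs. C was lost without control replicate 2 (-1.08) or DTT + TUDCA replicate 1 (-1.30).

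Traes_1BS_0A858EB86, listed under transport of pyruvate into mitochondria, had 3.25, 3.0 and 4.04 FPKM in C, 1.42, 0.805 and 0.675 in D and 1.73, 1.69 and 2.58 in T. The 3 groups did not overlap, and T lay between C and D. The log2 fold change was -2.01 ± 0.28 in D vs. C (limma, adjusted P = 0.00227), -0.95 ± 0.28 in T vs. C (adjusted P = 0.0717) and 1.06 ± 0.28 in T vs. D (adjusted P = 0.54). The last call was lost without DTT replicate 2 (0.97), DTT replicate 3 (0.88) or DTT + TUDCA replicate 3 (0.89). Traes_1BS_BB2203477, listed under cation transport, had 2.07, 1.81 and 1.93 FPKM in C, 0.203, 0.982 and 0.861 in D and 0.577, 0.0969 and 0.561 in T. It fell by 2.37 ± 0.57 (log2) in T vs. C (limma, adjusted P = 0.0342), and its value in D vs. C was -1.80 ± 0.57 (adjusted P = 0.085).

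Lipid and sugar metabolism was represented by 3 members of low level. Traes_1BS_F54A0F09C, listed as hydroxymethylglutaryl-CoA synthase, an early enzyme of the mevalonate route to isoprenoids, had 2.02, 1.15 and 3.40 FPKM in C, 1.30, 0.95 and 0.399 in D and 2.41, 2.19 and 1.83 in T. C and D overlapped, and T was above D throughout. The log2 fold change was -1.45 ± 0.42 in D vs. C (limma, adjusted P = 0.0644) and 1.36 ± 0.42 in T vs. D (adjusted P = 0.604), and both calls were lost in the fit with replicate number as a block. Traes_1BS_2482E3596, listed as a glycosyltransferase, rose by 2.13 ± 0.50 in D vs. C (limma, adjusted P = 0.0271) from 8 fragments over the C libraries to 92 over the D libraries, a call lost without DTT replicate 3 (1.76). Traes_1BS_F5E892762, listed under carbohydrate metabolism, had a log2 fold change of -1.30 ± 0.38 in D vs. C (adjusted P = 0.0632).

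Peptidases and a gene of mixed terms made up the next set. Traes_1BS_4D249391E, an exopeptidase with a manganese-binding term, rose by 1.69 ± 0.44 in D vs. C (limma, adjusted P = 0.0421), from 10 fragments in C to 100 in D, a call lost without any 1 of control replicates 1 and 3 and DTT replicates 1 and 3 (1.41 to 1.69). Traes_1BS_FEA181281, listed as a serine carboxypeptidase, an enzyme that removes residues from the end of proteins, had 1.05, 0.584 and 0.745 FPKM in C and 0.379, 0.119 and 0.266 in T, with a log2 fold change of -1.53 ± 0.43 (adjusted P = 0.0595). That call was lost with replicate number as a block (unadjusted P = 0.0121, limma). The 14 terms of Traes_1BS_2F6DD776E are mixed and include defense response, restriction endonuclease activity, GTPase activity and signal transducer activity. Traes_1BS_2F6DD776E had 1.27, 1.39 and 1.43 FPKM in C and 0.880, 0.712 and 0.805 in D. Its log2 fold change of -0.93 ± 0.23 in D vs. C (limma, adjusted P = 0.0357) was under the fold limit.

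Of the 3 transcription factors, Traes_1BS_3761C242C, a zinc-finger factor of the GATA family, fell in both comparisons with C. It had 1.70, 1.97 and 2.13 FPKM in C, 1.15, 1.17 and 0.641 in D and 1.16, 0.732 and 0.720 in T, with log2 fold changes of -1.17 ± 0.29 (limma, adjusted P = 0.034) and -1.27 ± 0.29 (adjusted P = 0.0294). The first call was lost without control replicate 2 (-1.12), control replicate 3 (-1.13) or DTT replicate 3 (-0.93). Traes_1BS_61AA2C94D, of the DBP family, had 0.342, 0.122 and 0.189 FPKM in C and 0.695, 1.01 and 0.619 in T, a log2 fold change of 1.36 ± 0.37 (adjusted P = 0.0526). Traes_1BS_CE38938A8, of the plant-specific LOB family, had 0 fragments in all C libraries, 15 in D, nearly all in DTT replicate 1, and 16 in T. Against a floor of 3 fragments over the C group this was at least 5.28-fold higher in D and at least 6.43-fold higher in T, and neither passed the test.

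Side by side with listed relatives on the other short arms, some 1BS genes had far lower levels but similar ratios between groups. The relatives come from the same lists of genes responding in these libraries, so that choice favours similar ratios. Traes_1BS_5ACFA11B3, listed under binding of heat shock and unfolded proteins, as co-chaperones of the DnaJ type are, had 4.49, 6.39 and 5.97 FPKM in C, 3.05, 2.42 and 2.85 in D and 2.52, 3.69 and 4.01 in T. All treated libraries were below the controls, and its log2 fold change was -1.22 ± 0.24 in D vs. C (limma, adjusted P = 0.0111) and -0.90 ± 0.24 in T vs. C (adjusted P = 0.0483). With FPKM as deposited the value in D vs. C was -0.98, just under the fold limit.

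The genes with the same pair of terms were the most highly expressed genes of their arms. Traes_1AS_10A0B5BBF had 414, 523 and 453 FPKM in C, 247, 233 and 202 in D and 243, 273 and 353 in T. Traes_1DS_C3F67FDFB had 524, 699 and 614 FPKM in C, 309, 290 and 270 in D and 301, 328 and 445 in T. Traes_1BS_5ACFA11B3 stood at 1.04% to 1.42% of the level of the 1AS gene and at 0.836% to 1.12% of that of the 1DS gene in the 9 libraries. The ratio of the D mean to the C mean was 0.494 for the 1BS gene, 0.490 for the 1AS gene and 0.473 for the 1DS gene. Whether reads of the other copies were counted on the 1BS gene was not tested, and how the authors treated reads with several matches is not given in the sources used here.

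The GATA factors showed a like order. Traes_1AS_97CE311BA had a mean of 31.2 ± 5.58 FPKM in C (SD, n = 3), 12.3 ± 2.30 in D and 12.4 ± 2.31 in T, and Traes_1DS_CCB0E5EE7 had 18.9 ± 1.21, 7.62 ± 2.65 and 6.86 ± 0.547. Traes_1BS_3761C242C had 1.93 ± 0.218, 0.985 ± 0.298 and 0.871 ± 0.252. It stood at 5.24% to 8.59% of the 1AS gene and at 9.64% to 17.6% of the 1DS gene. In contrast, Traes_1BS_BB2203477 was near its listed relative Traes_1DS_1360CF476 in C, at 1.94 ± 0.127 against 2.47 ± 0.697 FPKM. In T it was lower, at 0.412 ± 0.273 against 1.37 ± 0.106, without overlap between the libraries. The identifiers share terms or a family, which does not show that they are homoeologs.

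A further look at copies used the code at the end of the identifiers, which some genes of different arms share. Such a match was found for 58 members in 86 pairs with 1AS or 1DS, and in 76 pairs both genes were at 0. Over the whole arms 53.2% of genes were at 0 on 1BS, 28.2% on 1AS and 27.7% on 1DS. The matched genes are thus not typical of their arms. In 3 pairs a 1BS gene was above 1. Traes_1BS_1BCCE78E0 had a mean of 2.75 FPKM against 3.04 and 3.37 for its namesakes on 1AS and 1DS. Traes_1BS_5615CA520 had 1.55 FPKM against 16.2 for its namesake on 1DS, and itself fell in D vs. C by 1.09 (log2) (limma, adjusted P under 0.05).

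Other DEGs of the rule had no function given. Traes_1BS_84EDDA66B had 1.84, 1.75 and 2.70 FPKM in C, 0.570, 1.03 and 0.488 in D and 1.03, 1.29 and 0.793 in T, with all treated libraries below the controls. Its log2 fold change was -1.73 ± 0.32 in D vs. C (limma, adjusted P = 0.00884) and -1.13 ± 0.32 in T vs. C (adjusted P = 0.062). The T vs. C call was lost without any 1 of 5 libraries, all control replicates among them. Traes_1BS_680CF6C21 fell by 1.83 ± 0.46 in D vs. C (limma, adjusted P = 0.0345), from 90 fragments in C to 11 in D, a call lost without control replicate 3 (-1.48) or DTT replicate 3 (-1.63), and in T vs. C its value was -1.68 ± 0.46 (adjusted P = 0.054), a call lost with replicate number as a block (unadjusted P = 0.0109, limma).

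Several of the largest fold changes rested on few fragments. Traes_1BS_EEC637567 had 0 fragments in C and 15 in D, at least 5.28-fold higher against a floor of 3 fragments over the group. Traes_1BS_CE19D80E8 had 2 in C and 31 in D, a ratio of 16.4 with an exact 95% binomial interval from 4.16 to 141, and its call was lost without control replicate 2, DTT replicate 1 or DTT replicate 3 (log2 1.62 to 1.67). Traes_1BS_E9A9CB13C had 10 in C and 1 in D, a ratio of C to D of 9.47 (1.35 to 411), and Traes_1BS_B57E95D9C had 24 in C and 3 in T, a ratio of C to T of 6.63 (2.01 to 34.4). These intervals cover counting error only. All 4 were below 1 FPKM in every library.

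In T vs. C the other named rises were Traes_1BS_9FDB4C9EC and Traes_1BS_6681FE545. Traes_1BS_9FDB4C9EC had 0.907, 0.758 and 0.743 FPKM in C, 1.36, 1.60 and 1.61 in D and 2.51, 8.61 and 1.70 in T. The size of its log2 value of 1.76 ± 0.50 (limma, adjusted P = 0.0599) leans on DTT + TUDCA replicate 2. Without that library it was 1.07 and still a DEG, while the call was lost without any 1 of the control replicates (1.69 to 1.83). Traes_1BS_6681FE545 had 0.914, 0.854 and 0.703 FPKM in C, 1.22, 0.840 and 1.34 in D and 2.33, 2.01 and 2.83 in T. T lay above all other libraries. It rose by 1.25 ± 0.26 in T vs. C (limma, adjusted P = 0.0202), and its value in T vs. D was 1.07 ± 0.26 (adjusted P = 0.5), or 0.88 when DTT replicate 2 was left out and 0.96 when DTT + TUDCA replicate 3 was.

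The other two named genes of T vs. D were lower in T. Traes_1BS_E0A52650C had 0.370, 0.611 and 0.541 FPKM in D and 0.188, 0.221 and 0.0776 in T, a log2 fold change of -1.17 ± 0.36 (limma, adjusted P = 0.602). Traes_1BS_BA046E212, among the 15 highest genes, had 20.4, 17.8 and 12.9 FPKM in C, 19.9, 32.6 and 19.4 in D and 16, 7.73 and 11.0 in T. T and D did not overlap, and the value of -1.0 ± 0.29 (adjusted P = 0.577) sat at the fold limit, from which it moved to between -0.98 and -0.77 without DTT replicate 2, DTT + TUDCA replicate 2 or DTT + TUDCA replicate 3. Traes_1BS_8C1DB9CF91 had -1.12 ± 0.26 in T vs. D (adjusted P = 0.493), and -0.81 without DTT + TUDCA replicate 2.

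Of the 37 calls of named genes, 11 were kept when any one library was left out. In D vs. C these were the rises of Traes_1BS_8C1DB9CF91 and Traes_1BS_C428DA20B and the falls of Traes_1BS_ABD495014, Traes_1BS_0A858EB86, Traes_1BS_84EDDA66B and Traes_1BS_5ACFA11B3. In T vs. C they were the rises of Traes_1BS_8C1DB9CF91, Traes_1BS_36169E4A1 and Traes_1BS_6681FE545 and the falls of Traes_1BS_BB2203477 and Traes_1BS_3761C242C. The calls of Traes_1BS_F54A0F09C, Traes_1BS_F5E892762, Traes_1BS_FEA181281, Traes_1BS_7F3F0F4EE, Traes_1BS_61AA2C94D, Traes_1BS_E9A9CB13C, Traes_1BS_EEC637567 and Traes_1BS_E0A52650C, all with an adjusted P above 0.05, were each lost without any 1 of at least 3 libraries, some of them controls. The same held for the T vs. C calls of Traes_1BS_84EDDA66B, Traes_1BS_680CF6C21, Traes_1BS_9FDB4C9EC and Traes_1BS_B57E95D9C.

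Summed over all 1465 genes, 1BS made up 1382, 1169 and 1315 parts in 1000000 of the summed FPKM of all genes in the C libraries, 1688, 1711 and 1674 in D and 1620, 1296 and 1466 in T. The D libraries were above all C and T libraries, while T and C overlapped. Within libraries of the same number, T was above C by 238, 128 and 152 parts. The mean was 1691 ± 19.0 (SD, n = 3) in D and 1288 ± 109 in C, a ratio of 1.31. A two-sided exact permutation test gave p = 0.1, the smallest that 3 against 3 allow, and 0.15 adjusted over the 9 comparisons of 3 arms. For T vs. C the ratio was 1.13 (exact permutation p = 0.3, and p = 0.25 for the paired differences, the smallest that 3 pairs allow) and for T vs. D 0.864 (p = 0.1). On 1AS the D to C ratio was 1.18 and on 1DS 1.17, again without overlap (exact permutation p = 0.1 each).

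Much of the difference on 1BS came from 1 gene. Without Traes_1BS_8C1DB9CF91 the D to C ratio was 1.16 and the difference was 204 parts in place of 402. The T to D ratio was then 0.923 (exact permutation p = 0.3), and T and D overlapped. The D to C ratios of 1AS (1.18) and 1DS (1.17) were taken with all genes of those arms. The most highly expressed gene of each fell in D, and sums without it were not computed. The 1BS ratio without its top gene is thus not like for like with them. The sums take FPKM as deposited, without the scaling factors of the gene tests. As deposited, the median log2 fold change of all genes tested in D vs. C was 0.22. Whether the ratio of the sums exceeds this shift was not tested. Within a library, the sum of 1BS was 14.6% to 15.6% of that of 1AS in C, 16.6% to 17.1% in D and 13.5% to 15.9% in T. Counted as fragments in place of FPKM the D to C ratio of 1BS was 1.15.

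**Figure D5:**
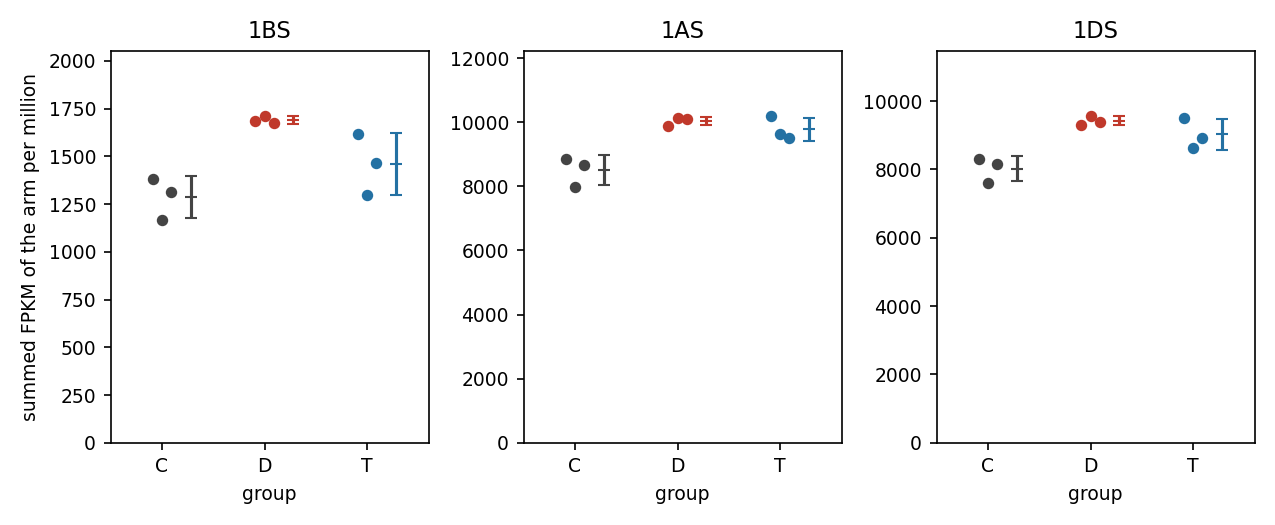
Points give the summed FPKM, as deposited, of the genes of the arm, in parts in 1000000 of that of all genes. They show each library of C, D and T, with the group mean and SD beside them. The axes start at 0 and differ between the panels. On 1BS D lies between 1674 and 1711 and C between 1169 and 1382, and on 1AS and 1DS D also lies above C.

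An FPKM of 0 states only that no fragment was counted on the reference sequence of a gene. A gene that the cultivar lacks, one that differs from the reference too much to be matched and one that the leaf does not transcribe cannot be told apart with these values.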

How the data were processed

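Paired-end RNA-seq libraries of leaves were processed by the authors, who filtered the reads for adapters, unread bases and low quality, aligned them to the wheat reference genome and deposited FPKM values for all genes in 1 table, with no further scaling. Their processing notes name TopHat2 2.0.12, Bowtie2 2.2.3 and HTSeq 0.6.1. Strandedness and annotation release are not given in the sources used here. DEGs in the study came from DESeq on counts, which was not repeated. The deposited values are FPKM, and limma-voom on recovered fragments was run only as an alternative.

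Members and lists were chosen with earlier results of these data known. Libraries were put on 1 scale with median-ratio factors, 0.1 was added to each scaled FPKM, and log2 values of genes with a mean of at least 0.1 were fitted in limma 3.58.1 (R 4.3.3) with 3 groups and a variance trend, with Benjamini-Hochberg adjustment over all 78030 genes. Fold changes are on that scale, which understates changes of low genes. The code was tested on simulated data. Arm shares and sums were tested by exact permutation in python 3.11.15 with scipy 1.17.1. Named genes were the 15 members of largest mean, the DEGs of largest fold change (10 in D vs. C and 5 in each of the other comparisons), the members in the lists of the study with up to 2 relatives an arm, and 5 unannotated transcripts.

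Replicates with the same number deviated together in C and T (correlations of 0.266, 0.272 and 0.216). The main fold changes, P values and calls in T vs. C did not use this pairing. It entered only through the replicate block, run as an alternative, and the paired sums. With replicate number as a block, 22 in place of 23 members were DEGs in T vs. C. Alternatives covered the added value, filter, scaling, block, trend, groups in the model, call rule, fragments and each library left out.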

Additional observations from a re-analysis of the deposited data

How the results depend on the processing

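The shares of expressed genes kept their order under every limit, the scaling and each library left out, with the smallest exact p that the libraries allow each time (0.00391 with 9 libraries and 0.00781 with 8): 1BS minus 1AS ran from -27.7 to -27.3 points without single libraries, 1BS minus 1DS from -28.7 to -28.5 and 1BS minus 1BL from -34.5 to -34.3. The summed FPKM kept its direction (D vs. C 343 to 449, T vs. C 93.0 to 255, T vs. D -309 to -148 parts in 1000000 without single libraries). Counts of DEGs were less stable. In D vs. C 26 became 7 with 1 added before the log2 and 15 with a minimum of 1 FPKM, and 12 to 32 without single libraries. In T vs. C 23 became 7 with 1 added, and 13 to 28 without single libraries. In T vs. D 7 became 0 by adjusted P, 1 with 1 added, 3 with only the groups compared, and 3 to 9 without single libraries. limma-voom on recovered fragments called 31, 29 and 5. The replicate numbers of C and D, and of D and T, did not deviate together (correlations of -0.298 to 0.085), and the replicate block gave 28 DEGs for D vs. C and 6 for T vs. D. Of 37 fold changes of named genes, 8 kept their call under all alternatives run and none changed direction. The causes were not tested. The counts without DTT + TUDCA replicate 2 of expressed (185) and undetected genes (783) and the paired sums of T and C (replicate block, mean 172 parts) were added after seeing the data.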
